A study of Mus musculus with 9 samples.

Results

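The data cover 10 genes known for germ cell identity or for roles in the testis, read from a table of 24819 gene symbols by their names: Dazl, Dnd1, Nanos3, Sohlh2, Kit, Taf7l, Stk31, Brdt, Tex101 and Slc25a31. RNA came from E14, a mouse embryonic stem cell line, kept in 3 media on gelatin-coated plates. EPSCM is expanded potential stem cell medium, 2iLIF is serum-free N2B27 medium with the 2i inhibitors of MEK and GSK3 and leukemia inhibitory factor (LIF), and ES is serum medium with LIF. Each medium had 3 libraries, all from this single line. The labels do not tie the 3 to separate cultures, and the p-values measure only how far these libraries spread, possibly for technical reasons. The defining stem cell genes Pou5f1, Sox2 and Nanog were abundant in all 9 libraries, the lowest value being 174 FPKM.

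Germ cells arise in the mouse embryo as primordial germ cells, which are set apart by transcription factors and then held in their fate by RNA-binding proteins such as DAZL, DND1 and NANOS3. Later, in the testis and ovary, factors such as SOHLH2 and the receptor KIT accompany the start of differentiation, and testis forms of general proteins (TAF7L, BRDT, SLC25A31) replace or join their widely used relatives. Many germ cell genes have promoters rich in CG dinucleotides that are methylated and silent in somatic cells, and in mouse embryonic stem cells a Polycomb complex, PRC1.6, also represses many of them through MGA with MAX, which binds the E-box CACGTG, and E2F6, which binds sites with TCCCGC.

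Because the promoters of such genes carry these features, the 250 bases before the transcription start are shown for the 5 members with their highest level in EPSCM and a call against both other media (Dazl, Sohlh2, Taf7l, Brdt, Slc25a31), for Stk31, which shares the E-box, and for Nanos3, which was lowest in EPSCM. Sequences and positions are RefSeq's for build GRCm38.p6, matched by symbol for 9 of the 10 members; the FPKM table was made with another build, mm9, and holds no coordinates. Capitals mark CACGTG.
Slc25a31: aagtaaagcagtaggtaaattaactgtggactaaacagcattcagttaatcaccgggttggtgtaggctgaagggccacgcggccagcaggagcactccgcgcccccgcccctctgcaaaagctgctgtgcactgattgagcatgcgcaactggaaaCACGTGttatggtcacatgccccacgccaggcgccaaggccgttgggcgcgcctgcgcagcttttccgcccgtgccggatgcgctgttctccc
Brdt: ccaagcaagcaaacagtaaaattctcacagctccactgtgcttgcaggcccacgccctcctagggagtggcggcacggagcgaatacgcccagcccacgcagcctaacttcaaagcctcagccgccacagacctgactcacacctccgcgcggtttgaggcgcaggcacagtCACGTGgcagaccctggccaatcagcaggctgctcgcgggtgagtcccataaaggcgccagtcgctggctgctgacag
Taf7l: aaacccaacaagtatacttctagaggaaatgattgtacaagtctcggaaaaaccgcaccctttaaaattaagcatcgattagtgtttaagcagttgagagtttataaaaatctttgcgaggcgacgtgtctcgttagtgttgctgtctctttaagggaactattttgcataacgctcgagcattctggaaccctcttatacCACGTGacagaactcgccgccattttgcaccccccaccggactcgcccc
Stk31: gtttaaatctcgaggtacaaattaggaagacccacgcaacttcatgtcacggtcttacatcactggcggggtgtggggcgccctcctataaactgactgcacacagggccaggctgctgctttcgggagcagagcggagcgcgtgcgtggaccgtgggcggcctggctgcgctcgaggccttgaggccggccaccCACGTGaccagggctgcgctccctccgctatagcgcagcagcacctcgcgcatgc
Dazl: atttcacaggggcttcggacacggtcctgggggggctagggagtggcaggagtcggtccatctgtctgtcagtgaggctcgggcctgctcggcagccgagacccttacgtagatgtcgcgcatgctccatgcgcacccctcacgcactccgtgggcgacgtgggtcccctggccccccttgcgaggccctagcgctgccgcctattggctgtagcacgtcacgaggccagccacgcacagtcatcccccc
Sohlh2: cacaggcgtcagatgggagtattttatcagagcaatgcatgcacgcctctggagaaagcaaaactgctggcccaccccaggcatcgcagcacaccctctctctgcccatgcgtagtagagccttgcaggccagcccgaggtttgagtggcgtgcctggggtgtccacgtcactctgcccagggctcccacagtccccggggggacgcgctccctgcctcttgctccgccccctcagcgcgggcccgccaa
Nanos3: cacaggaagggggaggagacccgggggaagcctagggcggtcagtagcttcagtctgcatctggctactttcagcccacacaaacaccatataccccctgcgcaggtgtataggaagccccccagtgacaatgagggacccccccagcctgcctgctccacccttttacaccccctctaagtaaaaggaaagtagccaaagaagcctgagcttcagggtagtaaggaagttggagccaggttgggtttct
The stretches lie at chr3:40708621-40708870 on the plus strand (Slc25a31), chr5:107330944-107331193 on the plus strand (Brdt), chrX:134476491-134476740 on the minus strand (Taf7l), chr6:49395289-49395538 on the plus strand (Stk31), chr17:50293621-50293870 on the minus strand (Dazl), chr3:55181794-55182043 on the plus strand (Sohlh2) and chr8:84176553-84176802 on the minus strand (Nanos3).

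The letters CACGTG, which read the same on both strands, occurred once each in the promoters of Slc25a31, Brdt, Taf7l and Stk31, starting 93, 78, 49 and 55 bases before the start. In windows of 300 bases (250 before and 50 after the start), 7.24% of 27025 promoters and 10.6% of the 9689 promoters of tested genes held it. The letters TCCCGC, searched on both strands, occurred in Slc25a31 at position 21 after the start and in Kit at 117 and 96 bases before it; 20.0% of all promoters and 37.1% of those of tested genes held them. The 2 motifs did not overlap in these windows. The same windows of the members held 28 CG dinucleotides in Dazl, 29 in Stk31, 23 in Brdt, 22 in Slc25a31, 20 in Kit, 19 in Tex101 and 17 each in Sohlh2 and Taf7l, against a median of 7 over all promoters and of 21 over those of tested genes. Nanos3 stood apart from the other 8 with 3. These are matches of letters in a fixed window and say nothing of binding.

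**Figure D1:**
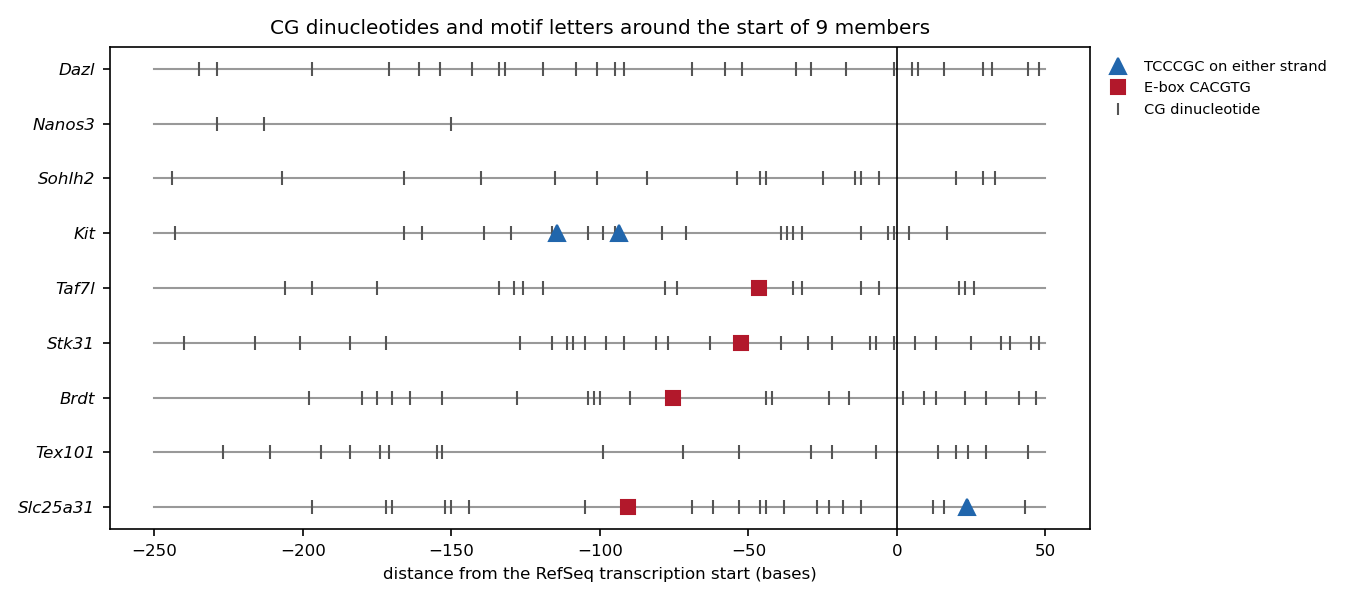
Positions of CG dinucleotides (grey ticks), the E-box CACGTG (red squares) and TCCCGC on either strand (blue triangles) in the 300-base promoter windows of 9 members, by distance from the RefSeq transcription start in bases. Nanos3 has 3 CG dinucleotides, against 17 to 29 in the other windows, and the 4 E-boxes all lie before the start.

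Levels are FPKM, fragment counts scaled by transcript length and library total, given per library as replicates 1, 2 and 3 and as mean ± SD (n = 3). Differences are in log2(FPKM + 1) ± SE from limma, a linear model with pooled variance fitted over all tested genes, and understate the change of low genes. A gene was called at a Benjamini-Hochberg adjusted p under 0.05 and a difference of at least 1 in size, and the test covered the 12330 genes that reached 1 FPKM in 3 or more libraries. Of the 10 members, 9 passed this filter; Tex101 did not. The 3 comparisons share libraries in pairs (EPSCM, 2iLIF or ES), so their values for a gene are not independent of each other. The steps of the lowest values put 1 fragment in a transcript of 1 kb at roughly 0.0321 to 0.0532 FPKM, a rough figure because transcript lengths came from another annotation. In each medium 1 library stands apart (EPSCM replicate 2, 2iLIF replicate 1, ES replicate 1): it correlated with the others of its medium at r = 0.9855 to 0.9902 across genes, against 0.9959 to 0.9967 for the remaining pairs. The libraries that stand apart carry the highest library numbers in the sample titles, 19, 18 and 16, where the others have 2 to 12. What these numbers stand for was not given.

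In EPSCM against ES, 6 of the 9 tested members were called higher and none lower, where 11.7% of all tested genes were called higher, 7.97% lower and 19.7% in either direction. In EPSCM against 2iLIF, 6 were higher and 1 lower, against 10.1% and 5.91% of all tested genes, 16.1% together. In 2iLIF against ES, 3 were higher and 1 lower, against 7.62% and 7.12%, 14.7% together. The median difference of the 9 was 1.35 in EPSCM against ES (0.09 over all tested genes), 1.18 in EPSCM against 2iLIF (0.03) and -0.06 in 2iLIF against ES (0.03). Taf7l, Brdt and Slc25a31 passed the filter through EPSCM alone and so had to differ, and the members were chosen with results known, so these counts describe the members only. The balance of these backgrounds depended on the scaling. In EPSCM against ES, 59.4% of all calls were higher, and after quantile normalization 49.5% were (1141 higher and 1162 lower), or 51.7% with libraries scaled to the same median ratio; the members stood at 6 higher and none lower under both. In EPSCM against 2iLIF, 63.2% of the calls were higher, and after quantile normalization 52.8% were, where the members stood at 5 higher and 1 lower.

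**Figure D2:**
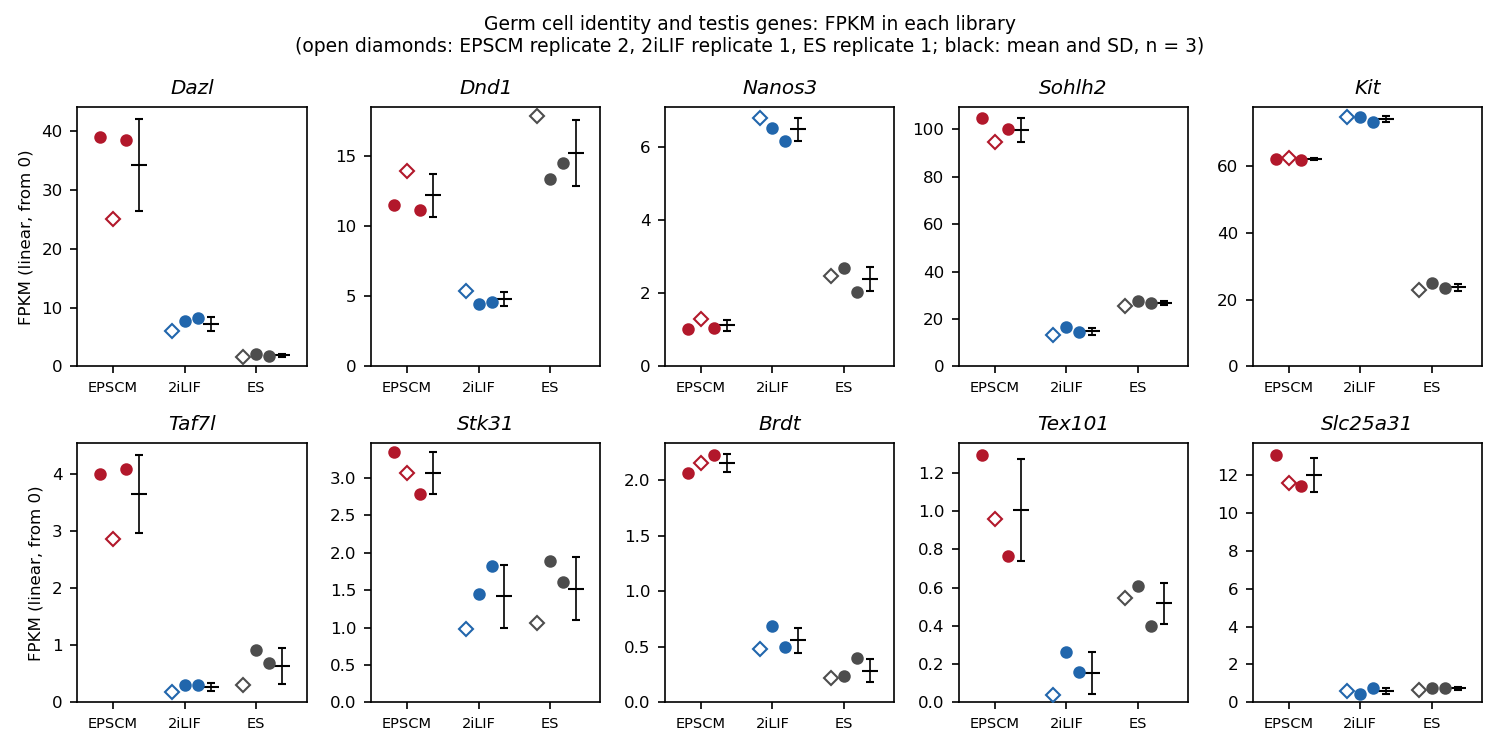
FPKM of the 10 members in each library on linear axes from 0, with EPSCM, 2iLIF and ES from left to right; open diamonds are the library of each medium that stands apart, and black marks give the mean and SD (n = 3). Slc25a31 stood at 11.4 to 13.0 FPKM in EPSCM and under 1 FPKM in the other 6 libraries, while Nanos3 was lowest in EPSCM and highest in 2iLIF.

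Among the RNA-binding proteins that hold germ cell fate, the 3 members had 3 different orders over the media. Dazl, which licenses primordial germ cells to become gametes, had 39.0, 25.2 and 38.6 FPKM in EPSCM, 5.95, 7.65 and 8.25 in 2iLIF and 1.62, 2.19 and 1.80 in ES. The media did not overlap, and the mean in EPSCM was 4.71 times that in 2iLIF and 18.3 times that in ES. The differences were 2.07 ± 0.18 for EPSCM against 2iLIF (limma adjusted p = 7.92e-06), 3.60 ± 0.18 over ES for EPSCM (adjusted p = 2.31e-07), and 1.52 ± 0.18 for 2iLIF against ES (adjusted p = 6.45e-05). The library that stands apart had less Dazl in each medium, at 0.648 of the mean of the remaining libraries in EPSCM, 0.748 in 2iLIF and 0.811 in ES; over 11677 genes with at least 1 FPKM in EPSCM this ratio ran from 0.623 at the 5th to 1.27 at the 95th percentile. The part of this split in the Dazl level was not tested. Leaving out any 1 library moved the difference of EPSCM against ES only between 3.49 and 3.80.

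Dnd1, an RNA-binding protein whose loss in the Ter mouse empties the gonads of germ cells and gives testicular teratomas, was lowest in 2iLIF. It had 11.5, 13.99 and 11.1 FPKM in EPSCM, 5.42, 4.45 and 4.63 in 2iLIF and 17.9, 13.4 and 14.5 in ES. EPSCM and ES overlapped (-0.29 ± 0.12, adjusted p = 0.0555). Within the split, EPSCM was the lower of the pair of libraries that stand apart, at 13.99 FPKM against 17.9 in ES, and its remaining libraries lay below those of ES. With that split as a term of the model the adjusted p was 0.000119 (0.000119 to 0.178 over the alternatives), at the same -0.29, short of the limit of 1. The split was read from these same expression values, so this smaller p is no independent check. It follows the highest library numbers in the titles, but no label names it as a batch. All 2iLIF libraries lay below the other 6, with differences of 1.18 ± 0.12 for EPSCM against 2iLIF (adjusted p = 2.84e-05) and -1.47 ± 0.12 for 2iLIF against ES (adjusted p = 7.21e-06). Exons of Dnd1 overlap those of Wdr55 on the opposite strand in GENCODE's annotation of GRCm38, and how strand entered the counting was not given in the sources used here, so the 2 genes may share reads. Wdr55 averaged 19.6 ± 2.05 FPKM in EPSCM, 31.5 ± 2.505 in 2iLIF and 39.0 ± 2.27 in ES, an order that differs from that of Dnd1.

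Nanos3, a zinc finger protein that keeps migrating primordial germ cells from apoptosis, was highest in 2iLIF. It had 1.01, 1.29 and 1.06 FPKM in EPSCM, 6.78, 6.51 and 6.16 in 2iLIF and 2.47, 2.68 and 2.04 in ES. The 3 media did not overlap. It fell in EPSCM against 2iLIF (-1.82 ± 0.09, adjusted p = 1.81e-07) and rose in 2iLIF against ES (1.14 ± 0.09, adjusted p = 3.60e-06). In EPSCM against ES the difference of -0.68 ± 0.09 (adjusted p = 8.73e-05) stayed short of the limit of 1, and with a pseudocount of 0.1 in place of 1 it passed, at -1.03. The EPSCM values rest on roughly 15 to 20 fragments a library.

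Sohlh2 and Kit, a transcription factor and a receptor of differentiating germ cells, were the most abundant members, both above 13 FPKM in all 9 libraries. Sohlh2, a basic helix-loop-helix factor that acts with SOHLH1 in spermatogonia and oocytes, had 105, 94.4 and 100.1 FPKM in EPSCM, 13.3, 16.4 and 14.5 in 2iLIF and 25.7, 27.5 and 26.7 in ES. The order EPSCM, ES, 2iLIF held with no overlap, and the EPSCM mean was 6.76 times that in 2iLIF and 3.74 times that in ES. The differences were 2.68 ± 0.08 for EPSCM against 2iLIF (adjusted p = 1.51e-08), 1.86 ± 0.08 over ES for EPSCM (adjusted p = 9.61e-08) and -0.82 ± 0.08 for 2iLIF against ES (adjusted p = 1.73e-05), the last short of the limit. Its partner gene Sohlh1 was near the floor, at 0.105 ± 0.0400 FPKM in EPSCM, 0.0166 ± 0.0145 in 2iLIF and 0.0750 ± 0.0334 in ES.

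Kit, the receptor tyrosine kinase that primordial germ cells need to survive and migrate, also marks mouse embryonic stem cells and many other cells. It had 61.9, 62.3 and 61.6 FPKM in EPSCM, 74.6, 74.8 and 73.2 in 2iLIF and 23.0, 24.9 and 23.4 in ES. ES was low and the other media high, with differences of 1.35 ± 0.05 above it in EPSCM (adjusted p = 4.66e-08) and 1.603 ± 0.05 in 2iLIF (adjusted p = 1.41e-08). EPSCM lay slightly under 2iLIF with no overlap (-0.26 ± 0.05, adjusted p = 0.00115), short of the limit. The gene of its ligand, Kitl, stayed under 1 FPKM in every library.

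The testis forms of general proteins, Slc25a31, Taf7l and Brdt, were all higher in EPSCM than in the other media and low in both of those. They passed the filter through EPSCM alone, so this shared direction follows from the filter, and only the sizes describe them. Slc25a31, the ADP/ATP carrier of meiotic male germ cells, had 13.0, 11.6 and 11.4 FPKM in EPSCM, 0.624, 0.451 and 0.741 in 2iLIF and 0.657, 0.772 and 0.786 in ES. The EPSCM mean was 19.8 times that in 2iLIF (3.02 ± 0.08, adjusted p = 1.12e-08) and 16.3 times that in ES (2.90 ± 0.08, adjusted p = 1.43e-08). The 2iLIF and ES libraries overlapped, and the difference of 2iLIF against ES, -0.12 ± 0.08 (adjusted p = 0.236), changed sign, to 0.03, with quantile normalization.

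Taf7l, an X-linked relative of the TFIID subunit TAF7 used in spermatogenesis, had 3.996, 2.86 and 4.10 FPKM in EPSCM, 0.181, 0.304 and 0.311 in 2iLIF and 0.298, 0.917 and 0.692 in ES. All EPSCM libraries lay above the other 6, by 1.87 ± 0.15 over 2iLIF (adjusted p = 5.89e-06) and 1.52 ± 0.15 over ES (adjusted p = 1.96e-05), while 2iLIF and ES overlapped (-0.35 ± 0.15, adjusted p = 0.0683, short of the limit). Here too the library that stands apart was the lowest of its medium, at 0.707, 0.590 and 0.370 of the mean of the remaining pair in EPSCM, 2iLIF and ES. The 2iLIF values rest on roughly 7 to 18 fragments.

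Brdt, the testis member of the BET family of acetyl-lysine readers, had 2.07, 2.16 and 2.23 FPKM in EPSCM, 0.485, 0.690 and 0.501 in 2iLIF and 0.219, 0.237 and 0.403 in ES. The media did not overlap. It rose in EPSCM against ES (1.30 ± 0.07, adjusted p = 5.53e-07), with a mean 7.51 times that in ES. In EPSCM against 2iLIF the call stood on the limit (1.02 ± 0.07, adjusted p = 2.83e-06): the difference was 0.68 with quantile normalization, 0.98 with libraries scaled to the same median ratio, 0.98 without 2iLIF replicate 1, 0.99 without 2iLIF replicate 3 and 0.98 without the 3 libraries that stand apart, and the call was lost in each. Between 2iLIF and ES it was 0.28 ± 0.07 (adjusted p = 0.00930), short of the limit.

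The plot of members and relatives sets these genes beside the family members that most cells use. Of 14 listed relatives of the members, 9 were tested: 2 were called higher and none lower in EPSCM against ES (median -0.25, beside 0.09), 1 higher and none lower in EPSCM against 2iLIF (median 0.08, beside 0.03), and none in 2iLIF against ES (median 0.04, beside 0.03). Over all tested genes 19.7%, 16.1% and 14.7% were called in these comparisons. Slc25a4 and Slc25a5, the widely used ADP/ATP carriers, averaged 285 ± 21.8 and 506 ± 2.999 FPKM in EPSCM, 215 ± 17.0 and 397 ± 18.4 in 2iLIF and 129 ± 10.4 and 734 ± 18.6 in ES. Slc25a4 was called in EPSCM against ES (1.14 ± 0.09, adjusted p = 2.96e-06), and neither was called in the other 2 comparisons. FPKM is scaled by length, so levels can be set side by side: Slc25a31 was 4.24% ± 0.533 of Slc25a4 in EPSCM, 0.283% ± 0.0738 in 2iLIF and 0.579% ± 0.0965 in ES (SD, n = 3 libraries). Taf7l was 7.67% ± 0.431 of Taf7 in EPSCM, 0.300% ± 0.0628 in 2iLIF and 1.08% ± 0.447 in ES. Taf7 itself had -0.27 ± 0.12 in EPSCM against ES and -0.88 ± 0.12 in EPSCM against 2iLIF, and was called in none of the 3 comparisons. Brdt was 2.81% ± 0.197 of Brd2 in EPSCM, 0.521% ± 0.121 in 2iLIF and 0.317% ± 0.120 in ES, and neither Brd2 nor Brd3 was called in any comparison. Even in EPSCM each testis form was far less abundant than the relative set beside it here. Nanos1 averaged 1.73 ± 0.192 FPKM in EPSCM, 1.59 ± 0.148 in 2iLIF and 2.55 ± 0.284 in ES, with no call, while Nanos2, the NANOS protein of male germ cells, had at most 0.0622 FPKM in any library. Taf4b, a TFIID subunit of the gonads, was called in no comparison, and Boll, of the DAZ family, and Pdgfra, a receptor related to KIT, failed the filter.

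**Figure D3:**
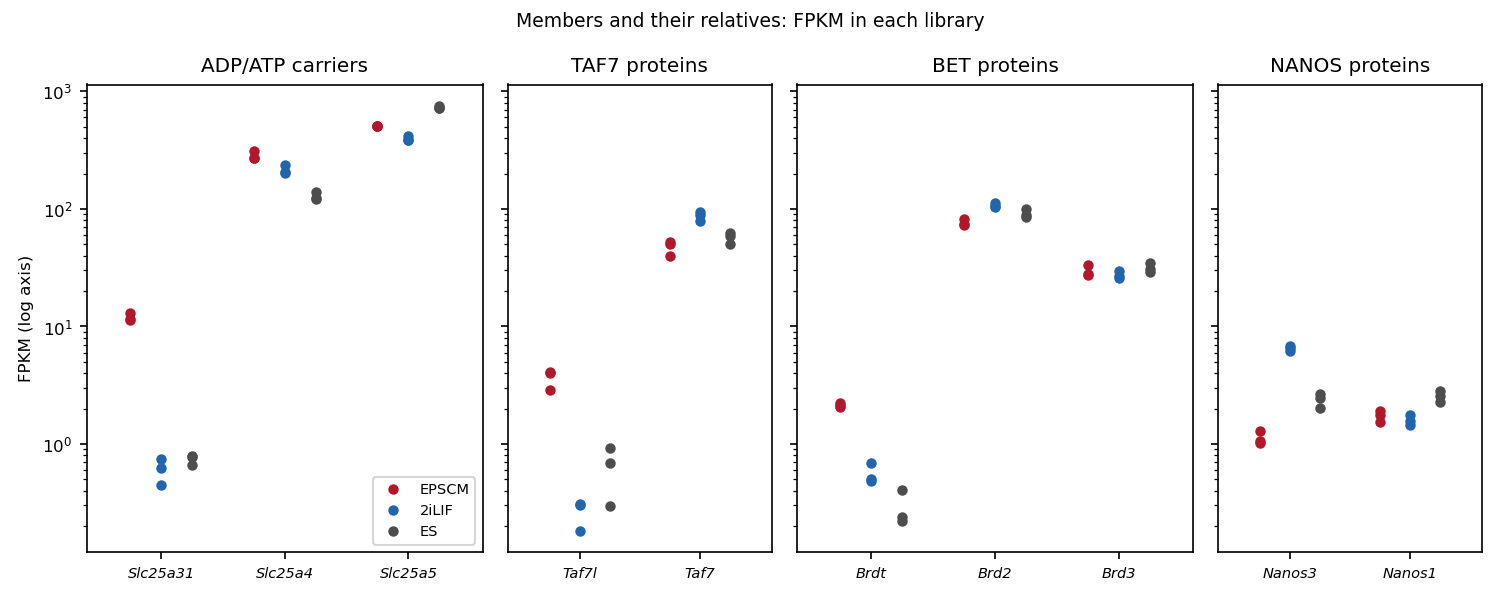
FPKM in each library on a log axis for the members Slc25a31, Taf7l, Brdt and Nanos3 and their relatives, with EPSCM (red), 2iLIF (blue) and ES (grey) from left to right for each gene. The testis forms lie far below their relatives in all media and closest to them in EPSCM, where Slc25a31 was 4.24% of Slc25a4.

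Stk31 and Tex101, known from spermatogenic cells and sperm, were low in all media. Stk31, a germ cell protein with a Tudor and a kinase domain, had 3.35, 3.07 and 2.79 FPKM in EPSCM, 0.987, 1.45 and 1.83 in 2iLIF and 1.06, 1.89 and 1.62 in ES. All EPSCM libraries lay above the other 6, but the differences of 0.70 ± 0.15 over ES (adjusted p = 0.00260) and 0.76 ± 0.15 over 2iLIF (adjusted p = 0.00180) stayed short of the limit; with a pseudocount of 0.1 that over 2iLIF was 1.09 and passed. Its 2iLIF and ES libraries overlapped (-0.06 ± 0.15, adjusted p = 0.747), and the sign of that difference turned with array weights, without 2iLIF replicate 1 and without ES replicate 2. The library that stands apart had 0.603 of the mean of the remaining pair in 2iLIF, 0.605 in ES and 0.999 in EPSCM. Over genes with at least 1 FPKM the 5th percentile of this ratio was 0.656 in 2iLIF and 0.627 in ES. The part of this split in the Stk31 differences was not tested.

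Tex101, a glycoprotein of the germ cell surface that sperm need for fertility, had 1.29, 0.957 and 0.767 FPKM in EPSCM, 0.0411, 0.262 and 0.160 in 2iLIF and 0.547, 0.607 and 0.397 in ES. These values correspond to roughly 1 to 31 fragments, and the media did not overlap. With no filter on low values its differences were 0.40 ± 0.11 for EPSCM against ES, 0.79 ± 0.11 for EPSCM against 2iLIF and -0.40 ± 0.11 for 2iLIF against ES, none of them called, where 12.6%, 10.3% and 9.48% of 19256 genes were called in these comparisons. Ly6k, whose protein partners TEX101 in mouse testis, was higher in EPSCM, at 7.76 ± 0.586 FPKM in EPSCM, 0.958 ± 0.192 in 2iLIF and 1.75 ± 0.618 in ES, a difference of 1.70 ± 0.16 over ES (adjusted p = 1.10e-05) and 2.16 ± 0.16 over 2iLIF (adjusted p = 2.72e-06).

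**Figure D4:**
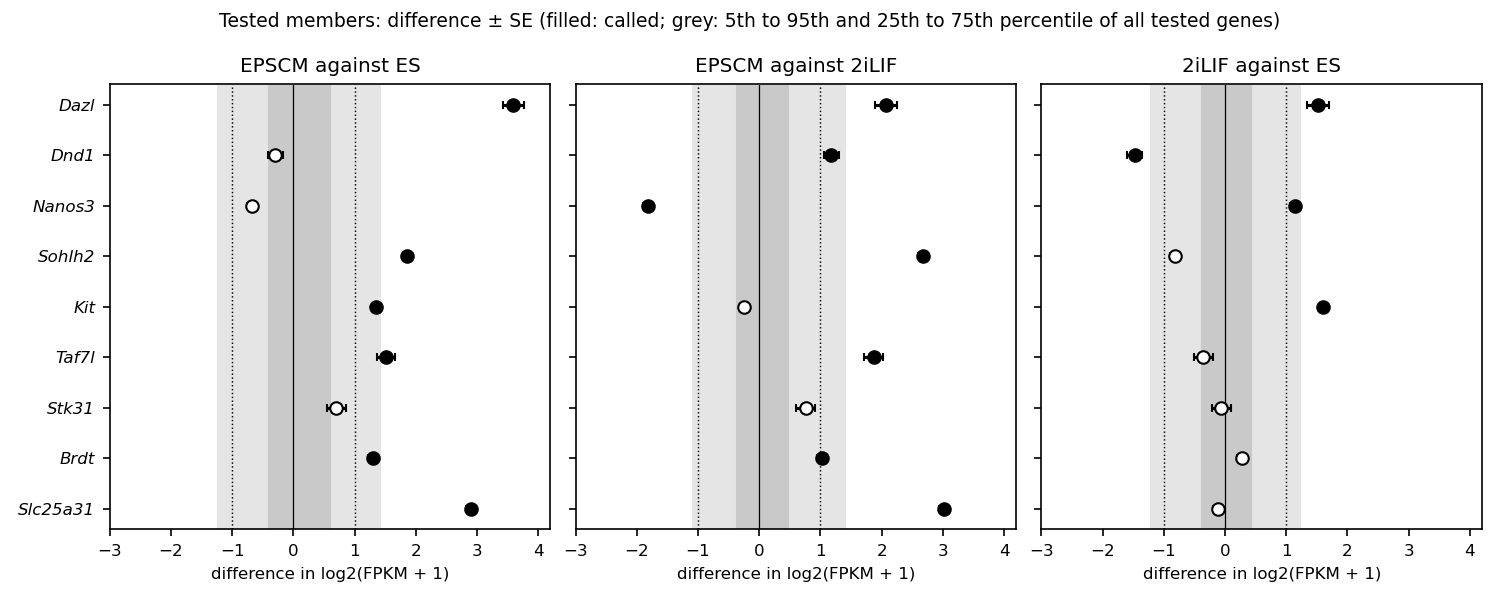
Differences in log2(FPKM + 1) ± SE of the 9 tested members in the 3 comparisons; filled points were called, dotted lines mark the limit of 1, and grey bands span the 25th to 75th and the 5th to 95th percentile of all 12330 tested genes. Dazl at 3.60 and Slc25a31 at 2.90 lie farthest right in EPSCM against ES, and Nanos3 at -1.82 is the 1 member beyond the limit of -1 in EPSCM against 2iLIF.

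Other genes of the germline were read from lists chosen with earlier results known. The counts of each list stand beside shares of all tested genes of 11.7% higher and 7.97% lower in EPSCM against ES. These shares were 10.1% and 5.91% in EPSCM against 2iLIF, and 7.62% and 7.12% in 2iLIF against ES. Germline genes silenced in other cells by promoter methylation or PRC1.6 were called higher in EPSCM against ES in 13 of 21 tested genes and lower in none, with a median difference of 1.11 beside 0.09 over all tested genes. Against 2iLIF 11 were higher and none lower (median 1.11, beside 0.03), and in 2iLIF against ES 2 were higher and 4 lower (median 0.28, beside 0.03). Asz1 and Dpep3 passed the filter through EPSCM alone and so had to differ there. Hormad1, Meioc and Smc1b would also have failed it without EPSCM, which makes the counts and medians a description only. Asz1, a piRNA pathway protein, had 5.72, 3.96 and 5.43 FPKM in EPSCM, 0.167, 0.443 and 0.303 in 2iLIF and 0, 0.0316 and 0 in ES. Mael, which silences transposons in male germ cells, averaged 10.3 ± 2.62 FPKM in EPSCM, 0.813 ± 0.179 in 2iLIF and 4.35 ± 0.937 in ES, and was higher in EPSCM against 2iLIF by 2.62 ± 0.19 (adjusted p = 2.87e-06). Fkbp6, needed for meiosis in males, was higher than in ES in both other media, at 28.8 ± 1.41 FPKM in EPSCM and 20.6 ± 1.39 in 2iLIF, against 3.84 ± 0.294 in ES. Tuba3b had the largest difference of this list in both EPSCM comparisons, 4.95 ± 0.10 over ES and 4.31 ± 0.10 over 2iLIF, but its near-identical copy Tuba3a may share its reads. The 4 called lower in 2iLIF against ES were Ddx4, Mael, Tdrkh and Mov10l1. Rpl10l, Tex19.1, Hsf2bp, Syce1 and Sycp3 were called in no comparison. Their differences in EPSCM against 2iLIF were -0.79 ± 0.14, -0.58 ± 0.06, 0.40 ± 0.07, -0.20 ± 0.09 and 0.70 ± 0.11.

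Of 14 tested regulators and markers of primordial germ cells, 1 was higher and 3 lower in EPSCM against ES (median -0.25, beside 0.09). In EPSCM against 2iLIF 2 were higher and 2 lower (median 0.03, beside 0.03), and in 2iLIF against ES 0 were higher and 2 lower (median 0.08, beside 0.03). Over all tested genes 19.7%, 16.1% and 14.7% were called in these comparisons. Prdm1, Prdm14 and Tfap2c, the factors that specify primordial germ cells, were called in none of the 3 comparisons, although Tfap2c came close in EPSCM against ES (0.99 ± 0.09, adjusted p = 8.46e-06). Ddx4, the RNA helicase that marks later germ cells, averaged 4.26 ± 1.57 FPKM in EPSCM, 0.951 ± 0.309 in 2iLIF and 4.77 ± 1.15 in ES; the low 2iLIF value was called on both sides, at 1.39 ± 0.25 for EPSCM against 2iLIF (adjusted p = 8.67e-04) and -1.56 ± 0.25 for 2iLIF against ES (adjusted p = 4.55e-04). Dppa3, a maternal factor expressed in primordial germ cells, rose in EPSCM against 2iLIF by 2.61 ± 0.11 (adjusted p = 9.65e-08) and against ES by 3.03 ± 0.11 (adjusted p = 4.99e-08). The 3 called lower in EPSCM against ES were Lin28a, Ifitm1 and Pou5f1, and the 2 called lower against 2iLIF were Ifitm1 and Ifitm3. The lists share genes, so their counts are not separate. Pou5f1, Sall4 and Lin28a are also counted as stem cell markers, Lin28a also as a spermatogonial gene, and Ddx4 also as a germline gene silenced in other cells.

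Of 11 tested spermatogonial genes, 2 were higher and 4 lower in EPSCM against ES (median -0.69, beside 0.09), 5 higher and 2 lower in EPSCM against 2iLIF (median 0.79, beside 0.03) and 1 higher and 6 lower in 2iLIF against ES (median -1.06, beside 0.03). The 2 called higher in EPSCM against ES were Rhox13 (1.98 ± 0.08) and Dmrt1 (1.22 ± 0.06). The 4 called lower there were Rarg (-1.48 ± 0.08), Etv5 (-1.42 ± 0.08), Lin28a (-1.36 ± 0.11) and Pou3f1 (-1.18 ± 0.05). The homeobox gene Rhox13 averaged 21.0 ± 1.27 FPKM in EPSCM, 2.40 ± 0.275 in 2iLIF and 4.57 ± 0.200 in ES. Id4, an inhibitor of helix-loop-helix factors that marks spermatogonial stem cells, averaged 1.93 ± 0.235 FPKM in EPSCM, 17.0 ± 1.51 in 2iLIF and 2.45 ± 0.235 in ES.

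Most listed genes of mature gametes were low. Of 17 oocyte genes, 12 were under 1 FPKM in all 9 libraries and 5 were tested. In EPSCM against ES 1 was higher (Nlrp14) and 1 lower (Ooep), with a median of 0.51 beside 0.09. Nlrp14 passed the filter through EPSCM alone, so its difference there follows from the filter. In EPSCM against 2iLIF 2 were higher (Khdc3 and Nlrp14) and none lower (median 0.10, beside 0.03), and in 2iLIF against ES Khdc3 was lower and none was higher (median -0.02, beside 0.03). Nlrp14 averaged 2.69 ± 0.684 FPKM in EPSCM, 0.275 ± 0.154 in 2iLIF and 0.292 ± 0.127 in ES. The oocyte list summed to 233 to 248 FPKM in EPSCM, 248 to 277 in 2iLIF and 232 to 260 in ES, mainly through Tcl1 and Ooep. Tcl1 averaged 143 FPKM in EPSCM, 165 in 2iLIF and 101 in ES, and Ooep 57.6, 80.6 and 117. Of 24 spermatid and sperm genes, 19 were under 1 FPKM in all libraries, among them the protamines Prm1 and Prm2. Of the 5 tested none was called in EPSCM against ES (median 0.39, beside 0.09) or EPSCM against 2iLIF (median -0.35, beside 0.03), and only Ldhc, the lactate dehydrogenase of sperm, was higher in 2iLIF against ES (1.37 ± 0.10, adjusted p = 2.88e-06). The spermatid and sperm list summed to 108 to 118 FPKM in EPSCM, 96.2 to 101 in 2iLIF and 84.1 to 93.0 in ES. This came mainly from Odf2, which averaged 103 FPKM in EPSCM, 86.5 in 2iLIF and 78.3 in ES.

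**Figure D5:**
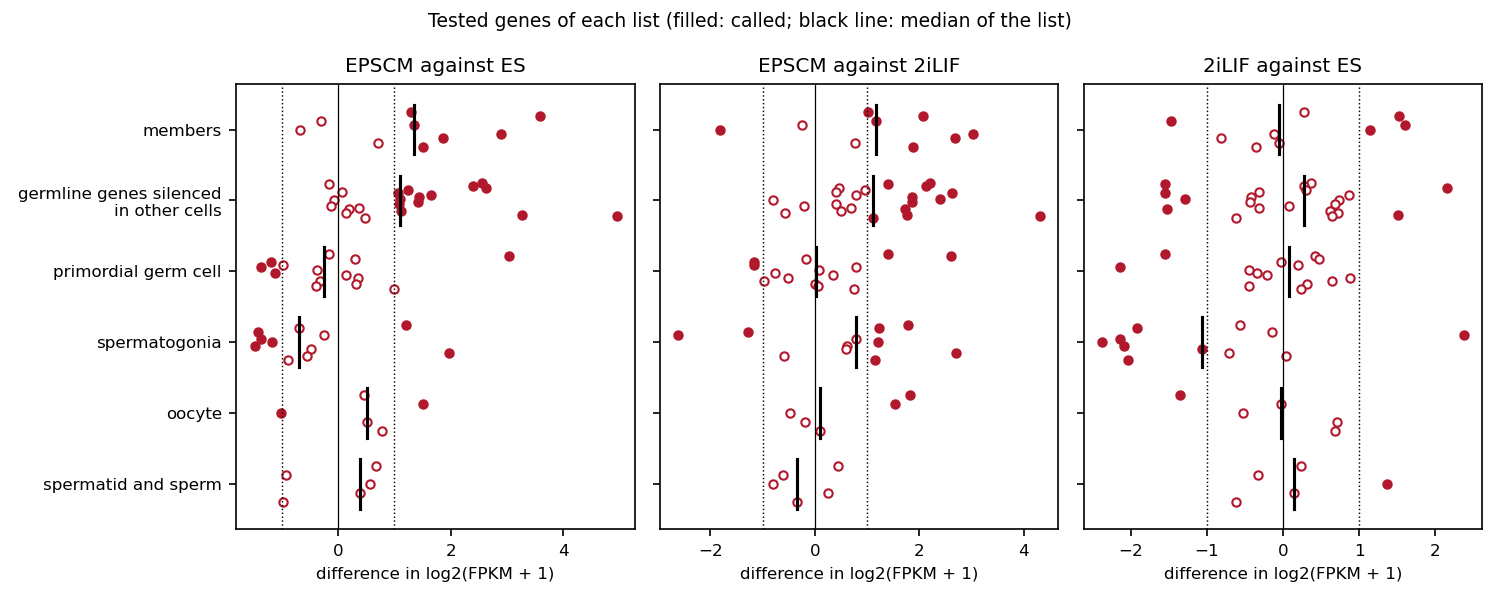
Differences in log2(FPKM + 1) of the tested members and of the tested genes of 5 germline lists in the 3 comparisons; filled points were called, black lines are list medians and dotted lines mark the limit of 1. The members and the germline genes silenced in other cells have medians of 1.35 and 1.11 in EPSCM against ES, while the primordial germ cell list has a median of -0.25.

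Of markers of other cell types, the 12 of the somatic testis (Sertoli and Leydig cells) summed to 11.0 to 11.5 FPKM in EPSCM, 5.83 to 6.33 in 2iLIF and 11.1 to 13.4 in ES, Fshr was at 0 in all 9 libraries, and Hsd3b1, Cyp17a1, Wt1 and Sox9 stayed under 1 FPKM. Of the 5 tested, Gata4 was called higher in EPSCM against ES (3.22 ± 0.491 FPKM in EPSCM and 0.817 ± 0.163 in ES), Cyp11a1 was called lower (1.41 ± 0.156 in EPSCM and 3.84 ± 0.354 in ES), and Inha was called higher in EPSCM against 2iLIF (1.86 ± 0.143 in EPSCM and 0.330 ± 0.219 in 2iLIF). In 2iLIF against ES, Cyp11a1 and Inha were called lower, and Star and Insl3 were called in no comparison. Summed markers of primitive endoderm were at 6.76 to 7.03 FPKM in EPSCM, 1.88 to 2.08 in 2iLIF and 4.87 to 5.52 in ES, and those of 2-cell-like cells at 0.925 to 1.18 in EPSCM, 0.701 to 1.17 in 2iLIF and 2.60 to 4.77 in ES. Those of fibroblasts were at 10.8 to 13.7 FPKM in EPSCM, 3.75 to 4.18 in 2iLIF and 15.0 to 17.6 in ES, and those of trophoblast at 23.0 to 30.1 in EPSCM, 56.9 to 66.4 in 2iLIF and 11.5 to 13.5 in ES. The fibroblast sum rests on Thy1 and Pdgfrb, as Col1a1, Col1a2, Col3a1 and Twist2 stayed under 1 FPKM in every library. In the trophoblast sum Krt8 alone averaged 47.6 FPKM in 2iLIF, while Elf5 and Gata3 stayed under 1 FPKM. Single markers in these sums went different ways. In EPSCM against ES, Gata6 (primitive endoderm) was called higher by 1.32 ± 0.06, Pdgfrb (fibroblast) by 1.56 ± 0.10 and Esx1 (trophoblast) by 2.86 ± 0.15, while Sox7 (primitive endoderm, -1.88 ± 0.05), Thy1 (fibroblast, -1.13 ± 0.09) and Zscan4c (2-cell-like, -1.05 ± 0.15) were called lower. In EPSCM against 2iLIF, Gata6 (1.73 ± 0.06), Esx1 (2.58 ± 0.15) and Thy1 (2.31 ± 0.09) were called higher, and Krt8 (-2.77 ± 0.10), Cdx2 (-1.89 ± 0.05) and Tfap2a (-1.26 ± 0.08), all of the trophoblast list, lower. Gata6 passed the filter through EPSCM alone, Sox7 and Zscan4c through ES alone and Cdx2 through 2iLIF alone. Their differences from those media follow from the filter, and Esx1 would not have passed it without EPSCM. The 8 stem cell markers summed to 2055 to 2173 FPKM in EPSCM, 2611 to 2905 in 2iLIF and 3300 to 3638 in ES. Among them Zfp42 (-1.70 ± 0.09), Lin28a (-1.36 ± 0.11) and Pou5f1 (-1.11 ± 0.13) were called lower in EPSCM against ES. Zfp42 was also called lower in EPSCM against 2iLIF (-1.30 ± 0.09) and Lin28a in 2iLIF against ES (-2.15 ± 0.11), and no stem cell marker was called higher. The part of other cell types in the members' levels was not tested, and in bulk RNA fewer cells of a type and less RNA per cell cannot be told apart.

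The tested genes with the profile nearest to each member, by Euclidean distance between centred log2(FPKM + 1) values over the 9 libraries, were Xlr3b and Slc1a1 for Dazl (0.590 and 0.779), Spint2 and Phldb1 for Dnd1 (0.162 and 0.254), and Wnt11 and Cth for Nanos3 (0.268 and 0.323). For Sohlh2 they were Rhox13 and Cbln1 (0.312 and 0.343), for Kit Firre and Abhd2 (0.171 and 0.243), and for Taf7l Meioc and Plod2 (0.143 and 0.315). For Stk31 they were Stt3b and Arrdc3 (0.321 and 0.338), for Brdt Appl2 and Ano10 (0.222 and 0.228), and for Slc25a31 Gtsf1 and Ndrg1 (0.480 and 0.496). For scale, a gene with no variation would lie 1.16 (Stk31) to 4.46 (Dazl) from these members. Meioc followed Taf7l closest of these, at 5.57 ± 0.978 FPKM in EPSCM, 0.801 ± 0.106 in 2iLIF and 1.44 ± 0.420 in ES.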

How the data were processed

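RNA of E14 cells was sequenced from messenger RNA libraries made with a stranded kit, per the labels' protocols. The deposited table holds 1 FPKM value per gene and library, produced by the authors with STAR and Cuffnorm on mm9, as the submitters' processing notes name them. Versions, gene annotation, library scaling and the handling of strand were not given in the sources used here. Dividing by library total lets abundant genes shift all others. All 9 columns were used; library sums were 546636 to 600728 FPKM.

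The members, lists and alternatives were chosen with earlier results of these data known. Values were taken as log2(FPKM + 1) for the 12330 genes that reached 1 FPKM in 3 or more libraries. One limma model (limma 3.58.1, R 4.3.3; mean per medium, trended empirical Bayes) was fitted over all 9 libraries, with p-values adjusted by Benjamini-Hochberg within a comparison. The model was checked on simulated data for both EPSCM comparisons. Replicate numbers follow accession order and pair no libraries. Named genes were the members, listed relatives, up to 4 called genes per list and comparison with the largest difference and at least 1 FPKM, and the 2 nearest profiles per member; not all are printed (1 listed relative is not reported here), and Wdr55 was added after its values were seen. Some listed genes without a call are named as well. Promoters came from RefSeq (GRCm38.p6), using the first listed start of a gene, and overlapping genes and transcript lengths from GENCODE's release for GRCm38.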

Additional observations from a re-analysis of the deposited data

How the results depend on the processing

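The 3 counts of members called moved by over 1.5 times in only 1 of the alternatives: with the filter set at a mean of 5 FPKM, which leaves 4 members, 3 were called in EPSCM against ES and 3 in EPSCM against 2iLIF. Under that filter, which tests fewer genes, the counts over all genes were 1532 in EPSCM against ES, 1025 in EPSCM against 2iLIF and 1055 in 2iLIF against ES, in place of 2423, 1979 and 1817. With no fold limit they were 9015, 8381 and 8265, and with a pseudocount of 0.1 the count in 2iLIF against ES was 2738. Leaving out single libraries gave 2405 to 2492, 1975 to 2017 and 1808 to 1895 genes and kept the members at 6, at 6 to 7 and at 4. Over the alternatives for single members, 595 values kept direction and side of the limit, 5 were weaker (all Brdt in EPSCM against 2iLIF) and 2 stronger. Signs turned in 4, all uncalled in 2iLIF against ES: Stk31 at 0.03 with array weights, 0.08 without 2iLIF replicate 1 and 0.05 without ES replicate 2 (-0.20 to 0.08 over single libraries left out), and Slc25a31 at 0.03 with quantile normalization; the cause was not tested. No paired analysis was possible because no label pairs libraries across media: the library numbers all differ and the replicate numbers only name libraries. The highest library numbers, 16, 18 and 19, belong to the libraries that stand apart. The split seen in the data was fitted in its place: with it as a term of the model, 2429 genes were called in EPSCM against ES, 1982 in EPSCM against 2iLIF and 1821 in 2iLIF against ES, and the members called stayed at 6, 7 and 4 in number. Depth limits Tex101, Nanos3 in EPSCM and Taf7l in 2iLIF.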
